A study of Mus musculus with 6 samples.

Results

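The 9 genes examined here encode regulators of pancreatic acinar cell identity that lie outside the PTF1 complex: Bhlha15, Nr5a2, Gata4, Gata6, Mecom, Xbp1, Foxa2, Foxa3 and Nr0b2. They were chosen by name, and all 9 were found among the 55414 gene identifiers of the count tables and among the 13115 genes that passed the filter on low counts. RNA sequencing had been done on 6 preparations of pancreatic acinar cells, which make and release digestive enzymes, from untreated adult mice. The 3 control preparations had the genotype Pdx1Cre;Trip12+/+ and the 3 knockout preparations Pdx1Cre;Trip12fl/fl, so both groups carried the Cre recombinase. Mice are not named in the labels, and p values here measure the spread between these preparations. Values for a group are given in the order of replicates 1, 2 and 3. Pdx1 is active in the progenitors of the whole pancreatic epithelium, and recombination driven by it is not limited to acinar cells. TRIP12 is an E3 ubiquitin ligase, an enzyme that marks proteins for degradation.

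Acinar cells keep their identity through a layered set of transcription factors. BHLHA15 (also called MIST1) and XBP1 build and maintain the secretory apparatus, the nuclear receptor NR5A2 (LRH-1) activates digestive enzyme genes together with the PTF1 complex, and the zinc finger factors GATA4 and GATA6 act in pancreatic development and in the upkeep of the acinar state. FOXA2 and FOXA3 are forkhead factors that open chromatin in endoderm-derived tissues, MECOM is a zinc finger regulator, and NR0B2 (SHP) is a receptor-like repressor without a DNA-binding domain that restrains other nuclear receptors, NR5A2 among them.

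Gene counts ran from 31019500 to 34041901 per library. In normalised CPM, which scales counts to library size and composition, Trip12 averaged 25.9 ± 3.36 among controls and 14.0 ± 0.917 among knockouts (SD, n = 3). Its log2 fold change was -0.89, and edgeR's quasi-likelihood test gave 0.0256 as the adjusted p. Counts over the whole gene do not show which exons the remaining transcripts lack. Acinar products dominated every library: 22 secretory product genes held 66.6% to 72.9% of the gene counts. Xist, the noncoding RNA of the inactive X chromosome, was counted 2118 and 2440 times in control replicates 2 and 3 and 3 to 5 times in the other 4 libraries. Those 2 controls were read as female and the rest as male. Only control replicate 1 shared the sex of the knockouts, and in the other controls sex and genotype cannot be told apart. Fewer cells of a type and less RNA per cell cannot be told apart in these bulk samples either.

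The 9 factors spanned a wide range of levels. On the scale of normalised CPM per kilobase of annotated exon, Xbp1 was highest with a mean of 113 over the 6 libraries (range 92.1 to 146), and Bhlha15 was second with 55.6 (44.2 to 73.3). Both lay above 98% of the tested genes, at percentiles 99.2 and 98.6, and their ranges did not meet. Gata4 followed at 11.1 CPM per kilobase, then Foxa2 at 7.49, Nr0b2 at 6.44, Foxa3 at 6.30 and Nr5a2 at 5.76. The ranges of these 5 overlapped with those of their neighbours, although Gata4 stood above Foxa2 in all 6 libraries. Gata6 (2.06) and Mecom (0.722) were the lowest, each apart from the member above it in all 6 libraries, and Mecom lay at the 38.8th percentile of the tested genes. Annotated exons include every isoform, so that a gene with many alternative exons, such as Mecom, is placed lower on this scale.

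None of the 9 factors passed the test between knockout and control. In edgeR's quasi-likelihood fit over all genes, 0 of 9 had an adjusted p under 0.05, where 0.945% of all tested genes did (0.465% higher and 0.48% lower in knockout), and 0 of 9 had an unadjusted p under 0.05, where 16.7% did. DESeq2's Wald test, which called 4.53% of all genes, and limma-voom, which called 112 of 13115, also called 0 of 9. The adjusted p values ran from 0.299 (Foxa3) to 0.865 (Nr0b2). In 7 of the 9 the fitted value was lower in knockout and in 2, Gata4 and Gata6, it was higher, with a median log2 fold change of -0.24 against 0.02 for all tested genes. In none of the 9 did the normalised CPM of the groups lie fully apart, as they did in 22.9% of the tested genes. With the replicate number as a block, still 0 of 9 were called (5.99% of all genes were), and Foxa3 and Bhlha15 had unadjusted p values under 0.05 in that edgeR fit, as 22.4% of all genes did.

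**Figure D1:**
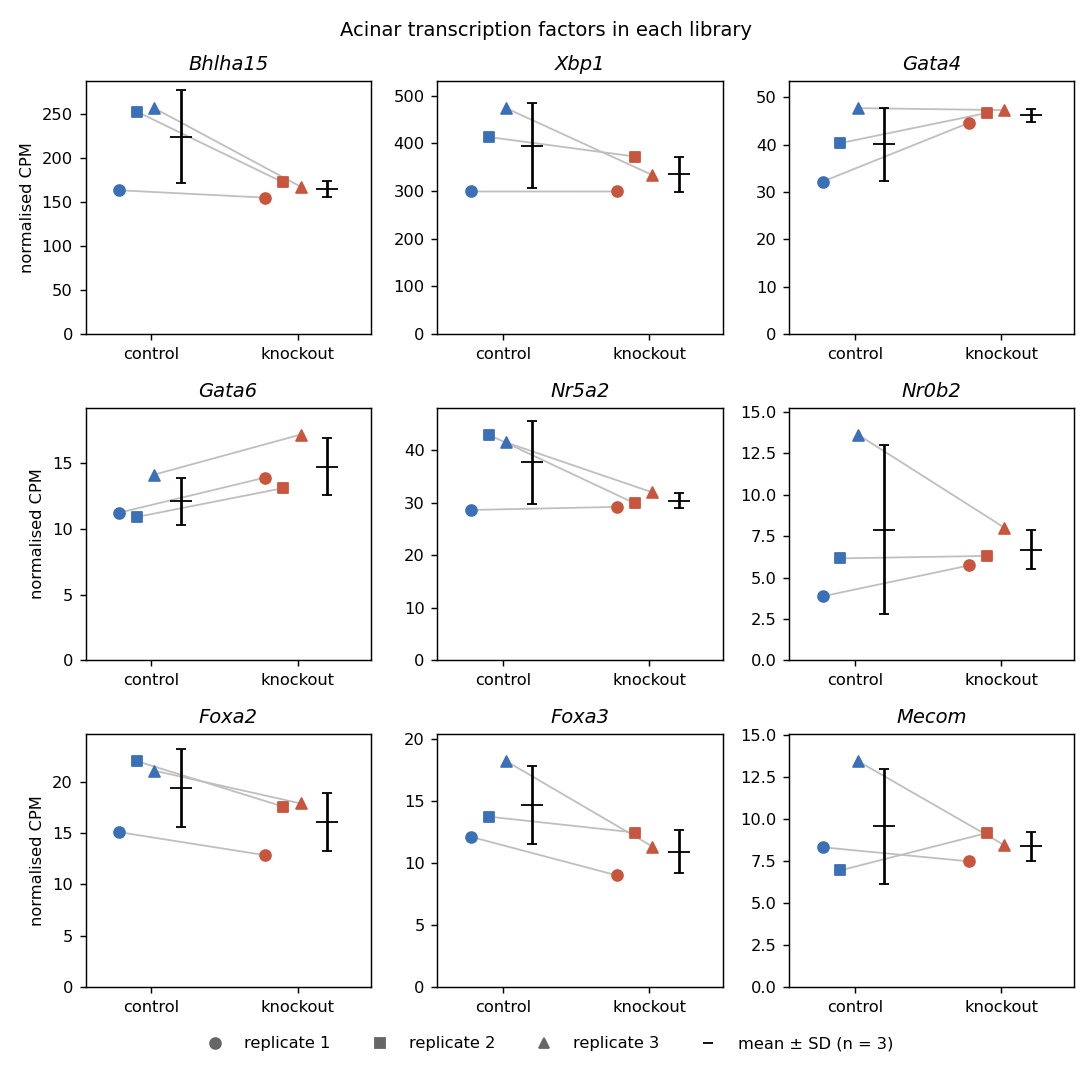
Normalised CPM of each factor (vertical axes, starting at 0) in the 3 control (blue) and 3 knockout (red) libraries, with symbols for the replicate number, grey lines joining libraries of the same number, and the mean ± SD in black. The groups overlap in all 9 panels, and the spread among controls is often wider than that among knockouts, as for Bhlha15 with 163 to 256 CPM against 155 to 172 CPM.

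The GATA factors were the pair with higher fitted values in knockout. Gata4 (ENSMUSG00000021944) was counted 1023, 982 and 1313 times among controls and 1665, 1636 and 1764 times among knockouts. The controls read 32.2, 40.3 and 47.7 CPM, and the knockouts 44.6, 46.7 and 47.3 CPM. The knockouts clustered tightly at the top of the control range, and control replicate 3 stood above all of them. In the edgeR fit Gata4 differed by 0.21 on the log2 scale, with a standard error (SE) of 0.16, a 95% interval from -0.16 to 0.57 and adjusted p = 0.586.

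Gata6 (ENSMUSG00000005836) read 11.2, 10.9 and 14.1 CPM among controls, and 13.9, 13.1 and 17.1 CPM among knockouts. Control replicate 3 again reached into the knockout range. Within each numbered pair the knockout was higher by a similar amount, 0.31, 0.26 and 0.28 on the log2 scale, and Gata6 was the only 1 of the 9 with higher values in all 3 pairs, as 24.2% of tested genes had. For Gata6 edgeR fitted a log2 fold change of 0.28 (SE 0.16, 95% interval -0.08 to 0.65), with adjusted p = 0.421, and 0.227 with the replicate block. In the GENCODE M21 annotation 93 exonic bases of Gata6 overlap the noncoding gene 1010001N08Rik on the opposite strand, and reads there could not be assigned by strand.

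The GATA result depended on how the libraries were scaled. The normalised CPM used trimmed mean of M values (TMM) factors, which allow for the large share of counts taken by secretory products. Without such a factor, with CPM taken over all gene counts, Gata4 stood at 32.7, 31.7 and 38.6 among controls and at 53.2, 52.2 and 54.8 among knockouts. Gata6 stood at 11.4, 8.54 and 11.4 among controls, below 16.5, 14.6 and 19.9 among knockouts. On that scale these 2 of the 9 factors lay apart between groups, as 40.9% of tested genes did (38.9% higher), and with counts outside the secretory products as the total the same 2 did, as 27.0% of genes (21.5% higher). With library totals both were called higher in edgeR, with log2 fold changes of 0.64 (adjusted p 0.0267) and 0.70 (adjusted p 0.0440). The same scaling moved the median log2 fold change of all tested genes up by 0.41, and 11.6% of tested genes were called, 11.0% of tested genes as higher. Relative to that median, Gata4 was higher by 0.21 and Gata6 by 0.27, while the other 7 factors were lower by 0.20 to 0.43.

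A ratio of 2 factors within a library does not depend on scaling. The design set out 4 such ratios, each compared by an exact two-sided permutation test, in which 3 against 3 libraries cannot give a p under 0.1. The ratio of Gata6 to Gata4 counts was 0.348, 0.270 and 0.296 among controls, and among knockouts 0.311, 0.280 and 0.362, a log2 difference of 0.06 (exact permutation p = 0.7, adjusted over the 4 ratios 0.7). The groups overlapped throughout in this ratio.

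All 36 ratios among the 9 factors were then computed, a step chosen after the values were seen. The groups lay apart in 10 of 36, against 22.1% of all pairs of tested genes, and the 36 share members and are not independent. Of the 14 ratios that set a GATA factor against one of the other 7, 9 lay apart, all higher in knockout, while 1 of the 22 other ratios did. That split sets the 2 factors with higher fitted values against the 7 with lower ones, so it restates those signs and is a description only. The lowest exact permutation p was 0.1, which came to 0.36 adjusted over the 36. The ratio of Gata4 to Bhlha15 was 0.198, 0.160 and 0.186 among controls, and among knockouts 0.289, 0.272 and 0.283. Every knockout library stood above every control, the male control included, by 1.56-fold on average. The ratio of Gata6 to Bhlha15 was 0.0688, 0.0432 and 0.0551 among controls, and among knockouts 0.0898, 0.0760 and 0.103, 1.62-fold higher on average and also without overlap. Against the geometric mean of the 7 other factors, Gata4 stood at 1.24, 1.17 and 1.07 among controls, and at 1.76, 1.53 and 1.55 among knockouts. Gata6 on the same measure stood at 0.430, 0.316 and 0.316 among controls, and at 0.548, 0.429 and 0.562 among knockouts. Here the groups overlapped for Gata6, as knockout replicate 2 lay just below control replicate 1.

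**Figure D2:**
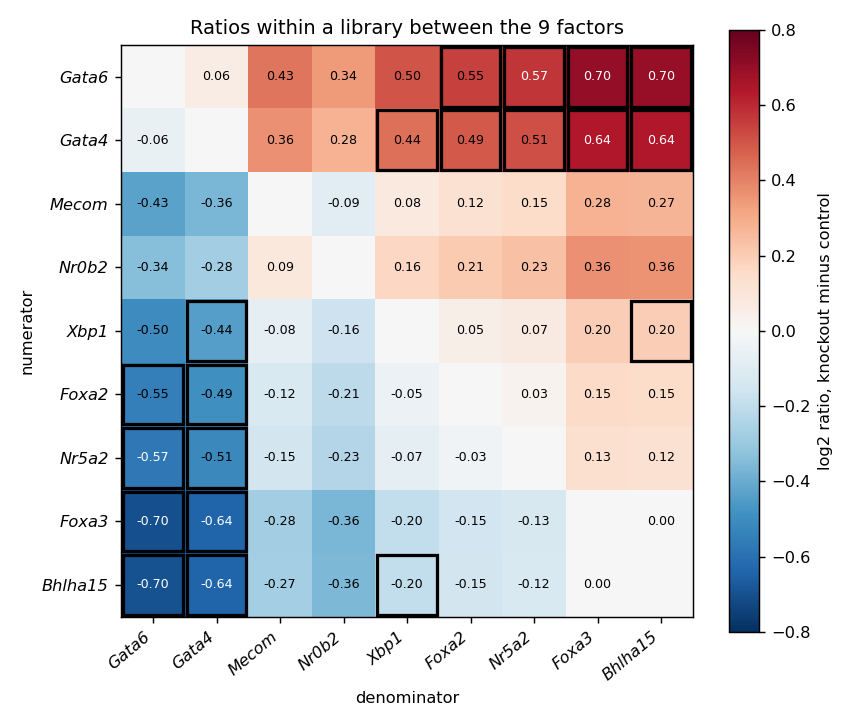
Difference between knockout and control in the mean log2 ratio of the counts of 2 factors within a library, with the numerator in rows and the denominator in columns; black frames mark ratios whose 3 knockout and 3 control values do not overlap. The Gata6 and Gata4 rows hold positive differences against each of the other 7 factors, from 0.28 to 0.64 for Gata4 and from 0.34 to 0.70 for Gata6, and the other 7 differ among themselves by at most 0.36.

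GATA factors work with cofactors of the FOG and LIM families. Of 8 cofactors and relatives, 4 passed the filter on low counts and 0 were called in edgeR (1 at an unadjusted p under 0.05), with a median log2 fold change of -0.03. Gata1 had no count in any library, and Gata3, Gata5 and Zfpm2 had at most 12 counts. Mesenchymal cells can also express Gata4 and Gata6, and the summed level of 10 mesenchymal markers, all tested and none at 0, ran from 31.1 to 125 CPM in control and from 34.1 to 134 CPM in knockout. That sum was 125, 31.1 and 38.75 CPM among controls, and 134, 34.1 and 111 CPM among knockouts. Gata4 was lowest in replicate 1 of each group, where the sum was highest. Gata6 was lowest in replicate 2 of each group, where the sum was lowest, and highest in replicate 3 of each. The part of other cell types in the GATA values was not tested.

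Bhlha15 and Xbp1, the factors of the secretory apparatus, were the most abundant. Bhlha15 (ENSMUSG00000052271) was counted 5173, 6139 and 7045 times among controls and 5768, 6025 and 6229 times among knockouts. After normalisation the controls read 163, 252 and 256 CPM, and the knockouts 155, 172 and 167 CPM. Control replicates 2 and 3, the female libraries, stood well above the rest, and control replicate 1 lay within the knockout range. For Bhlha15 the log2 fold change was -0.44 (SE 0.20, 95% interval -0.89 to 0.01, adjusted p 0.304 in edgeR's quasi-likelihood test). Leaving out control replicate 1, the only male control, gave -0.65 and a call (adjusted p 0.0381, where 3.41% of genes were called). That fit set female controls against male knockouts, so sex and genotype cannot be told apart in it. Adding a sex term gave 0.01 (adjusted p 0.986).

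Bhlha15's upstream sequence is shown because it holds matches to sites of 2 other factors of the set. The 250 bases before the RefSeq transcription start, read 5′ to 3′ on the plus strand of chr5:144190036-144190285 in build GRCm38.p6, carry in capitals a GATA match (GATAAG, here as its reverse complement CTTATC) 238 bases and an NR5A match (CAAGGNCA) 206 bases before the start:
Bhlha15: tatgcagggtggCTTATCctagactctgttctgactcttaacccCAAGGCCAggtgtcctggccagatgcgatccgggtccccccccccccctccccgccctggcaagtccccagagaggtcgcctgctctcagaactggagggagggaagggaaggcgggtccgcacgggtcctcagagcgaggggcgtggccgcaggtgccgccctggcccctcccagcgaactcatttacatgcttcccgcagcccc

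In all, 6 motifs were searched on both strands in RefSeq upstream sequences, of which 11 belonged to 7 of the 9 factors. The E-box preferred by BHLHA15 was written as CATATG and a general E-box of such dimers as CAGCTG. The GATA site was written as GATAAG, the forkhead site as TGTTTAC, the NR5A site as CAAGGNCA and the XBP1 site as TGACGTGG. GATAAG was present in 2 of the 11 and in 6.55% of all 32851 upstream sequences of that length, and CAAGGNCA in 2 of the 11 and in 5.53% of all. The other 4 had no match in the 11, and occurred in 3.46% (CATATG), 13.0% (CAGCTG), 3.17% (TGTTTAC) and 0.563% (TGACGTGG) of all. A match is a description of the letters only.

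Xbp1 (ENSMUSG00000020484) encodes the transcription factor of the unfolded protein response that becomes active when IRE1 splices its messenger RNA. The controls read 299, 414 and 474 CPM, and the knockouts 299, 373 and 334 CPM. The replicate 1 libraries of both groups were lowest, at 299.26 CPM in control and 299.21 CPM in knockout, and control replicates 2 and 3 were the highest of the 6. Xbp1 had a log2 fold change of -0.24 (SE 0.20, 95% interval -0.70 to 0.22, adjusted p 0.619 in the edgeR test), which became -0.43 without control replicate 1 and -0.09 without control replicate 3. Counts per gene do not separate spliced from unspliced Xbp1. The ratio of Xbp1 to Bhlha15 counts was 1.84, 1.64 and 1.85 among controls, and among knockouts 1.94, 2.17 and 2.00, a log2 difference of 0.20 without overlap (exact permutation p = 0.1, adjusted over the 4 ratios 0.4).

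Lists of genes downstream of these factors are read against the 0.945% of all tested genes called without the block and the 5.99% called with it. Of 6 genes reported as BHLHA15 targets, 0 were called in edgeR without the block (0 at an unadjusted p under 0.05), and their median log2 fold change was -0.07. With the block 1 was called, Cdkn1a, the cell cycle inhibitor p21 and a p53 target, with a log2 fold change of 0.70 (adjusted p 0.0460), against 0.54 (adjusted p 0.792) without it. Its controls read 3.46, 4.64 and 15.6 CPM, and its knockouts 7.91, 7.74 and 18.7 CPM. The secretory genes Rab3d, Rab26, Gjb1, Atp2c2 and Copz2 had log2 fold changes from -0.26 (Gjb1) to -0.02 (Rab26).

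Among 15 genes of IRE1 and its XBP1-dependent program, 0 were called in edgeR without the block (3 at an unadjusted p under 0.05), with a median log2 fold change of -0.09, and 2 were called with it. Ern1, which encodes IRE1 itself, read 29.3, 30.6 and 32.5 CPM among controls, and 42.6, 47.2 and 59.4 CPM among knockouts. Every knockout was above every control, and the log2 fold change in the edgeR fit was 0.69 (SE 0.16), with adjusted p = 0.0788, and 0.0160 with the block. Hspa13, an ER-associated chaperone of the HSP70 family, read 18.5, 18.7 and 11.9 CPM among controls, and 9.68, 11.8 and 9.44 CPM among knockouts, with adjusted p values of 0.143 without and 0.0294 with the block. Among 10 other stress-related bZIP factors, 8 were tested and 0 called in either edgeR fit (1 at an unadjusted p under 0.05 without the block), with a median log2 fold change of 0.19.

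Xbp1 is also abundant in plasma cells. Of 7 plasma cell markers, 4 were tested and 0 called, and their summed level ran from 0.691 to 47.8 CPM in control and from 3.57 to 87.7 CPM in knockout, highest in the replicate 1 libraries, where Xbp1 was lowest. The light chain gene Igkc was at 0 in control replicate 3, the library with the most Xbp1. The part of plasma cells in the Xbp1 values was not tested.

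The nuclear receptor Nr5a2 (ENSMUSG00000026398) read 28.6, 42.9 and 41.4 CPM among controls, and 29.2, 29.9 and 31.9 CPM among knockouts. As with Bhlha15, control replicates 2 and 3 stood above all other libraries and control replicate 1 was level with the knockouts. Nr5a2 had a log2 fold change of -0.31 (SE 0.17, 95% interval -0.70 to 0.08, adjusted p 0.409 in the edgeR test). Within pairs the differences were 0.03, -0.52 and -0.37.

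Nr0b2 (ENSMUSG00000037583), the repressor that NR5A2 itself can induce, was the most variable factor among the controls. It was counted 123, 150 and 375 times among controls and 214, 221 and 299 times among knockouts. The controls read 3.87, 6.16 and 13.6 CPM, and the knockouts 5.74, 6.31 and 8.02 CPM. Control replicate 3 was the highest and control replicate 1 the lowest of all 6, so the control range enclosed the knockouts. The coefficient of variation was 64.7% among controls and 17.8% among knockouts. Its log2 fold change of -0.24 (SE 0.46, 95% interval -1.35 to 0.88, adjusted p 0.865 in the edgeR test) turned to 0.42 without control replicate 3. The ratio of Nr0b2 to Nr5a2 counts was 0.135, 0.144 and 0.329 among controls, and among knockouts 0.197, 0.211 and 0.251 (log2 difference 0.23, exact permutation p = 0.6, adjusted over the 4 ratios 0.7).

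The upstream sequences of these 2 genes are shown because NR5A2 is known to act on the Nr0b2 promoter. For Nr0b2 the sequence lies on the plus strand at chr4:133553126-133553375 and holds 1 CAAGGNCA match, 201 bases before the start. For Nr5a2 it is the first of 2 listed starts, on the minus strand at chr1:136960449-136960698, with GATAAG matches (as CTTATC) 201 and 165 bases before the start. Both are from RefSeq in build GRCm38.p6, read 5′ to 3′ with matches in capitals:
Nr0b2: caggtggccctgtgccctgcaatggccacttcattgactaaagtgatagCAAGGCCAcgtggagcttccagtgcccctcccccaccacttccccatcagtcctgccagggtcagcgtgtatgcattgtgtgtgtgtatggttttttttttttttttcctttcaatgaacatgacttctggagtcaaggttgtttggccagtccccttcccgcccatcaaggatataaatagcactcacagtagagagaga
Nr5a2: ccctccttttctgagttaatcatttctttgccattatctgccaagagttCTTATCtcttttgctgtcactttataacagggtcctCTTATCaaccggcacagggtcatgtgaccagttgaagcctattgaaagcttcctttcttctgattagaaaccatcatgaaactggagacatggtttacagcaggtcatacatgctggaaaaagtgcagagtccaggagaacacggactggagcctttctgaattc

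Nr1h4 encodes FXR, the bile acid receptor that is the best known activator of Nr0b2. Its controls read 2.33, 5.79 and 5.67 CPM, and its knockouts 0.697, 1.34 and 0.617 CPM. All 3 knockouts stood below all 3 controls, the male control included. The edgeR fit gave a log2 fold change of -2.37 (SE 0.44, adjusted p 0.0535), and with the block Nr1h4 was called lower (log2 fold change -2.34, adjusted p 0.00158). Nr0b2 itself had its highest and its lowest value in controls. Of 9 nuclear receptor corepressors, coactivators and relatives, 7 were tested and 0 called in either edgeR fit (2 at an unadjusted p under 0.05 without the block), with a median log2 fold change of 0.17. Nr0b1 had no count in any library, and Nr5a1, the closest relative of Nr5a2, had at most 3 counts.

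Both forkhead members had lower fitted values. Foxa2 (ENSMUSG00000037025) read 15.1, 22.02 and 21.1 CPM among controls, and 12.8, 17.6 and 17.9 CPM among knockouts, and the replicate 1 library was the lowest of its group in both. The knockout was lower in each pair, by 0.23, 0.32 and 0.24 on the log2 scale. Foxa2 had a log2 fold change of -0.27 (SE 0.19, 95% interval -0.70 to 0.16), with adjusted p = 0.535 in the edgeR fit, and 0.251 with the block. Foxa1, the third member of the family, had at most 7 counts and was not tested.

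Foxa3 (ENSMUSG00000040891) read 12.1, 13.8 and 18.2 CPM among controls, and 9.01, 12.5 and 11.3 CPM among knockouts. Knockout replicate 2 exceeded control replicate 1, so the groups overlapped, but the knockout was lower in each pair. Its log2 fold change of -0.43 (SE 0.19, 95% interval -0.85 to 0.00) had the smallest p of the 9, 0.0503 unadjusted and 0.299 adjusted in the edgeR test, and 0.121 adjusted with the block. The ratio of Foxa3 to Foxa2 counts differed by -0.15 on the log2 scale (exact permutation p = 0.4, adjusted over the 4 ratios 0.7). In all, 4 factors (Bhlha15, Xbp1, Foxa2 and Foxa3) were lower in all 3 pairs, as 20.7% of tested genes were, and 5 of 9 had 1 direction in all 3, as 45.0% did; for Xbp1 the first pair differed by under 0.001. Among 12111 other protein-coding genes, those with log2 CPM profiles most like that of Foxa3 over the 6 libraries included Ngly1 and Pcmtd1, with Pearson correlations of 0.999 and 0.992, values that selected them and are given as a description.

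Mecom (ENSMUSG00000027684) read 8.32, 6.94 and 13.45 CPM among controls, and 7.48, 9.16 and 8.45 CPM among knockouts. Control replicate 3 alone stood high, and every knockout lay within the control range. Mecom had a log2 fold change of -0.20 (SE 0.24, 95% interval -0.74 to 0.35, adjusted p 0.754 in the edgeR test), which turned to 0.13 without control replicate 3. An antisense gene, Mecomos, shares 81 exonic bases with Mecom in GENCODE M21. Endothelial cells also express Mecom, and 8 endothelial markers, all tested and none called, summed to 24.6 to 108 CPM in control and 37.3 to 126 CPM in knockout, highest in the replicate 1 libraries, which were not the highest for Mecom. The part of endothelial cells in the Mecom values was not tested.

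Fitted values moved with the handling of sex. With sex as a term in the edgeR fit, 8 of the 9 factors had higher fitted values in knockout and Foxa3 alone a lower one, with log2 fold changes from -0.15 to 0.79 and adjusted p values of at least 0.374. The comparison of control replicate 1 with the 3 male knockouts alone gave values from -0.13 (Foxa3) to 0.81 (Nr0b2) and adjusted p values of at least 0.415. Both designs rest on 1 male control and called 0.16% and 0.121% of tested genes. Gata4 and Gata6 were higher in both, at 0.52 and 0.39 with the sex term. When libraries were scaled by their totals, 8 of 9 fitted values were also above 0, but 7 of 9 lay below the shifted median of all genes. With library totals that leave out the secretory products, which moved that median by 0.18, 7 of 9 were below 0. In that fit 0 of 9 were called, where 209 of 13115 tested genes were.

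**Figure D3:**
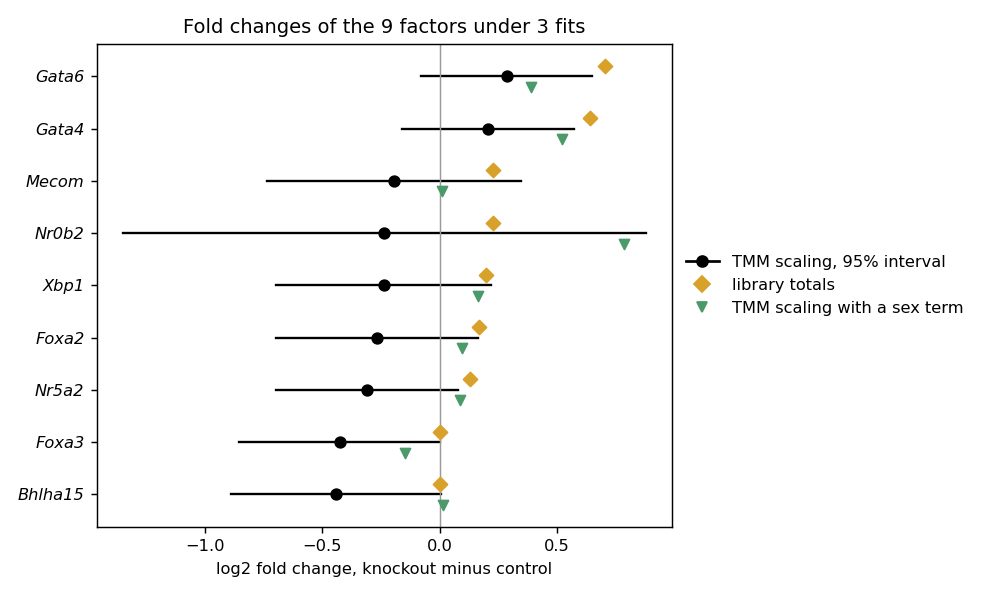
Log2 fold change (knockout minus control) of each factor from edgeR with TMM scaling (black, with 95% intervals), with library totals (orange) and with TMM scaling and a sex term (green). Every black interval includes 0, Gata4 and Gata6 lie right of 0 under the 3 fits drawn, and most of the other factors cross 0 between fits, as Bhlha15 from -0.44 to 0.01 with the sex term.

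A list of other pancreatic transcription factors, which was not limited to exocrine ones, gave a wider spread of values than the 9. Of 18 such factors, 17 were tested and 1 was called without the block, Nkx2-2, an islet factor, which rose from 1.09 ± 0.127 CPM to 2.97 ± 0.214 CPM (SD, n = 3; log2 fold change 1.44, adjusted p 0.0464 in edgeR's quasi-likelihood test). With the block 4 were called. Besides Nkx2-2 and Nr1h4 these were Prox1, a homeobox factor of pancreatic progenitors, with 2.89 ± 1.35 CPM among controls and 7.23 ± 3.17 CPM among knockouts (adjusted p 0.237 without and 0.00742 with the block), and Tead1, a partner of YAP, with 12.9, 11.0 and 12.3 CPM among controls and 5.76, 8.05 and 6.30 CPM among knockouts (adjusted p 0.0506 and 0.0123). Among the 5 genes of the PTF1 complex 0 were called without the block and 2 with it. Rbpjl averaged 214 ± 56.8 CPM among controls and 505 ± 145 CPM among knockouts (adjusted p 0.0685 without and 0.00203 with the block), and Ptf1a 10.7 ± 3.31 and 7.32 ± 2.03 CPM (adjusted p 0.374 and 0.0460). None of the 9 factors was called in either fit.

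**Figure D4:**
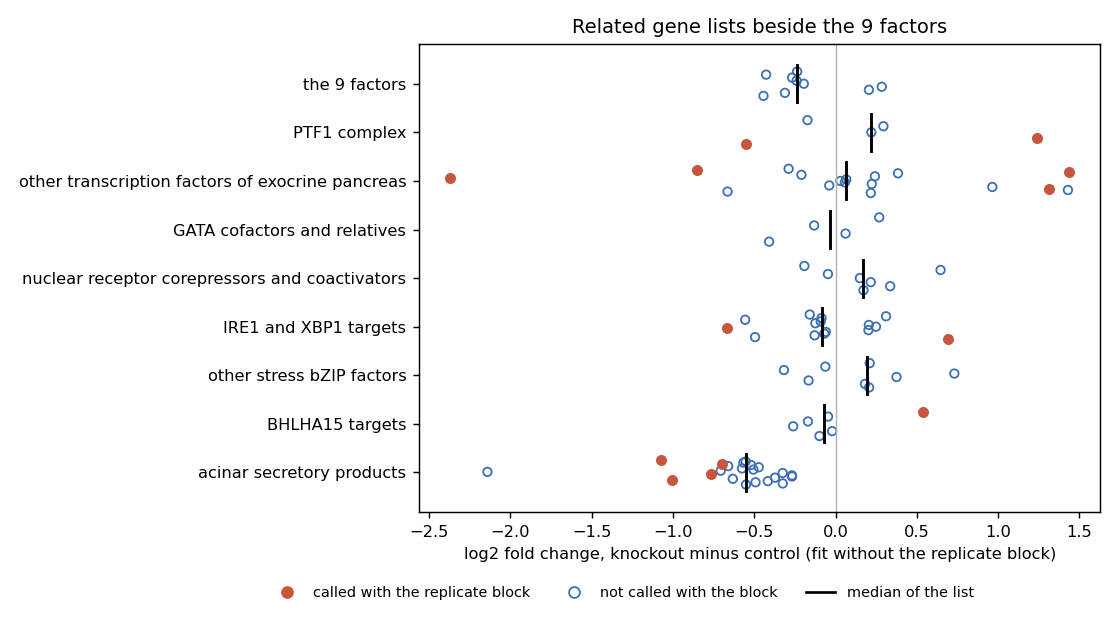
Log2 fold change (knockout minus control, TMM scaling, no block) of each tested gene in the 9 factors and 8 related lists; filled red points were called in the edgeR fit with the replicate block, open blue points were not, and black bars are list medians. The 9 factors lie between -0.44 and 0.28 with no filled point, and all 22 secretory product genes lie left of 0.

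Secretory products, the main output of the program that these factors maintain, had a median log2 fold change of -0.55. All 22 genes were tested, all had lower fitted values in knockout, and 0 were called in edgeR without the block, although 16 had an unadjusted p under 0.05. With the block 4 were called, all lower. Cela2a, a pancreatic elastase, had a log2 fold change of -0.99 with the block (adjusted p 0.0522 without and 0.0109 with it). Gp2, a zymogen granule membrane protein, had -1.09 with the block (adjusted p 0.0698 and 0.00919). Cpb1, a carboxypeptidase, had -0.76 with the block (adjusted p 0.0884 and 0.0321), and Spink1, a trypsin inhibitor, had -0.72 (adjusted p 0.228 and 0.0484). The median of the 22 was -0.12 under library totals. In normalised CPM the 22 summed to 684850, 926450 and 902170 among controls, and to 560040, 595920 and 575130 among knockouts. Control replicate 1, the only male control, was the lowest control and lay above every knockout. For control replicates 2 and 3, read as female, sex and genotype cannot be told apart.

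Markers of other cell types in the preparations did not separate the groups as sums. The 12 duct markers summed to 343 to 401 CPM in control and 299.9 to 415 CPM in knockout, and the 10 islet markers to 358 to 466 CPM and 246 to 914 CPM. The 12 leukocyte markers, of which 10 were tested, summed to 21.3 to 95.4 CPM in control and 17.8 to 70.0 CPM in knockout. None of these genes was called in the unblocked fit, whereas blocking by replicate called 6 duct markers, 4 higher and 2 lower, the smallest p values being those of Krt19 (log2 fold change -0.82, adjusted p 0.00645), Krt7 (1.15, adjusted p 0.0170), Spp1 (1.01, adjusted p 0.0177) and Cldn4 (1.69, adjusted p 0.0332). Pcsk2 was called among islet markers (1.03, adjusted p 0.0315), and 5 leukocyte markers were called. Those with the smallest p included the macrophage genes C1qc (1.45, adjusted p 0.0188), C1qa (adjusted p 0.0327, higher) and Adgre1 (2.00, adjusted p 0.0336). Foxa2 and Nkx2-2 are also islet factors. The islet sum was 466, 459 and 358 CPM among controls, and 914, 660 and 246 CPM among knockouts. Nkx2-2 read 1.07, 1.23 and 0.981 CPM among controls, and 3.22, 2.88 and 2.82 CPM among knockouts. Both the islet sum and Nkx2-2 were lowest in replicate 3 of each group. In knockout replicate 3, however, the islet sum lay below every control, while Nkx2-2 lay above every control. Foxa2 was the highest of the knockouts in replicate 3. The part of islet RNA in these values was not tested.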

How the data were processed

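The deposited files hold raw counts per Ensembl gene, 1 table per library; STAR 2.7.10a and mouse build GRCm39 are named in the submitters' processing notes, and the annotation behind the counts is not given in the sources used here. The unstranded counts were used, and reads outside genes were left out: unmapped (9.70% to 13.0% of reads), multimapping (21.6% to 28.4%), in no feature (0.893% to 2.18%) and ambiguous (3.29% to 3.63%). Symbols and exon lengths came from GENCODE M21 (build GRCm38), which held 94.1% of the 55414 identifiers. Because the builds differ, no gene coordinates are given, and upstream sequences carry their own build.

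Genes were tested with edgeR 4.0.16 in R 4.3.3 (filterByExpr, TMM, robust quasi-likelihood F test, Benjamini-Hochberg over 13115 genes, called under 0.05). Normalised CPM used TMM library sizes and log2 CPM a prior count of 2. The SE is the log2 fold change divided by the square root of F, and intervals are 95%. The code was tested on simulated data. DESeq2 1.42.0 and limma 3.58.1 were alternatives. Replicate numbers were taken to pair libraries because deviations from the group means correlated at 0.63, 0.45 and 0.28 in the same-numbered pairs. Differently numbered pairs lay between -0.50 and 0.21. Centring within each group pushes the differently numbered values down where the same-numbered ones are high. The pairing was read from the same counts that the block then tested, and calls with the block depend on it. Pairs 2 and 3 set a female control beside a male knockout. The labels call the number a biological replicate and do not say that equal numbers are matched between groups. The members and lists were chosen with earlier results of these data known. Named genes are the 9 factors, Trip12, list genes called with or without the block (at most the 4 with the smallest p per list), and the 3 genes most like the factor with the smallest p. Some items that this rule selects are not reported here. Other list genes named were chosen after their values were seen.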

Additional observations from a re-analysis of the deposited data

How the results depend on the processing

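The count of called genes moved by over 1.5 times under 15 of 21 alternatives. It stayed within that under the other 6: 118 with RLE size factors, 112 with limma-voom, 169 and 149 with counts of either strand, 88 without knockout replicate 2 and 100 in the block without pair 2. The 124 genes called became 1519 with library totals, 209 with totals outside the secretory products, 850 without a filter, 210 under a floor of 10 counts per library, 594 with DESeq2's Wald test, 785 with the replicate block, 21 with a sex term and 18 in libraries of the shared sex. They ran from 20 to 461 when each library was left out. Replicate blocks without pair 1, 2 or 3, chosen after seeing the data, gave 396, 100 and 832, so the 785 calls of the block fell most without pair 2; list genes were not recounted there. Factors called rose from 0 to 2 with library totals (Gata4 and Gata6). They ran from 0 to 1 when each library was left out (Bhlha15, without control replicate 1, the only male control). They were 0 with the replicate block, which changed no call of a factor. List genes called went from 1 to 25 with the replicate block and 13 with library totals.

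Gata4, Gata6 and Foxa3 kept their direction under all 21 alternatives, with ranges of 0.05 to 0.64, 0.16 to 0.70 and -0.57 to -0.0011. The other 6 reversed. Under library totals Bhlha15 was at 0.0001, Nr5a2 0.13, Mecom 0.22, Xbp1 0.20, Foxa2 0.17 and Nr0b2 0.23; with the sex term 0.0142, 0.0848, 0.008, 0.16, 0.0939 and 0.79; and in libraries of the shared sex 0.0326, 0.10, 0.0264, 0.18, 0.11 and 0.81. Without control replicate 3, Mecom was 0.13 and Nr0b2 0.42 (leaving out each library, -0.381 to 0.13 and -0.589 to 0.42), and in the replicate block without pair 3 they were 0.12 and 0.30. Under library totals all 6 lay below the median of all genes, which that scaling moved by 0.41. For the other settings the cause was not tested. The Gata6 to Gata4 difference ran from -0.0369 to 0.16 when each library was left out. The Gata4 to Bhlha15 and Gata6 to Bhlha15 differences ran from 0.55 to 0.70 and from 0.53 to 0.87. In these ratios the replicate block gave 0.64 and 0.70 (exact sign-flip p = 0.25, the smallest 3 pairs allow). Counting error was largest for Nr0b2 and Mecom, at 9.02% and 7.69% in the library with the fewest counts of each. Their spread among controls was larger, with coefficients of variation of 64.7% and 35.8%.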
